A study of Homo sapiens with 2 samples.

Results

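The genes described here are 10 members of the mitochondrial cell death pathway, 8 from the BCL2 family and 2 from the apoptosome. They were chosen by name and matched by gene symbol, and all 10 were found among the 28038 genes listed for this series. They are BCL2, BCL2L1, MCL1, BAX, BAK1, BCL2L11, PMAIP1, BBC3, APAF1 and CASP9. Poly(A) RNA was sequenced from a culture with raised IGF2BP3, whose protein binds m6A-marked transcripts, and from 1 control culture that received an empty viral vector. The labels give OVCAR-3, a line grown from human ovarian carcinoma, for both cultures. The promoter of the vector and the number of clones behind each culture are not stated in the labels. With 1 library per group there is no replicate error, so no test was made, and every difference is between these libraries only.

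In the mitochondrial pathway of apoptosis, BCL2-type survival proteins hold the pore formers BAX and BAK1 in check on the outer mitochondrial membrane. BH3-only proteins, which are induced or activated by stress, bind the survival proteins or the pore formers and tip that balance. Once the membrane is permeable, cytochrome c leaves the mitochondria and assembles APAF1 into the apoptosome, which recruits and activates caspase-9. Ovarian carcinoma cells often depend on BCL2-type survival proteins to withstand chemotherapy.

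The overexpression library held 48017861 counts and the control library 43190215. The targeted gene was higher where its label says so: IGF2BP3 had 6376 counts in the overexpression library, against 2944 in the control library, a ratio of 1.96 in CPM (a gene's counts as a share of its library, times 1000000). Most markers of the labelled cell type were low. Of 15 epithelial and ovarian serous carcinoma markers, 10 were listed, of which 9 stayed under 10 CPM in both libraries. The adhesion gene CDH1 had 2 counts in each library, and the Mullerian factor PAX8 had 32 counts in the overexpression library and 28 in the control library. KRT18, a keratin, was at 102 CPM in the overexpression library and 103 CPM in the control library. Summed over the list, these markers came to 116 CPM in the overexpression library and 118 CPM in the control library. Of 9 mesenchymal markers, 8 were listed. VIM, ZEB1 and CDH2 reached 10 CPM, and the other 5 stayed under 10 CPM in both libraries. The list summed to 2237 CPM in the overexpression library and 2265 CPM in the control library. Most of that sum was VIM, at 2149 CPM in the overexpression library and 2175 CPM in the control library. The 3 listed leukocyte markers and the 1 listed endothelial marker had at most 4 counts in either library.

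The sequences shown first are the promoter windows of the 3 members whose log2 ratios lay furthest from 0, which were APAF1, PMAIP1 and BCL2. Each window runs from 250 bases before to 50 bases after a gene start in RefSeq, on build GRCh38.p14, and is written 5′ to 3′ on the strand of its gene. In the APAF1 window, on the plus strand at chr12:98645040-98645339, the 29 capitals run from the annotated start of IKBIP to that of APAF1 in GENCODE release 29. IKBIP is transcribed in the opposite direction, and the starts are 28 bases apart. In the other windows the capitals mark GGGCGG on either strand, the core of the GC box, which was not found in the BCL2 window. The PMAIP1 window lies on the plus strand at chr18:59899746-59900045 and the BCL2 window on the minus strand at chr18:63319720-63320019.
APAF1: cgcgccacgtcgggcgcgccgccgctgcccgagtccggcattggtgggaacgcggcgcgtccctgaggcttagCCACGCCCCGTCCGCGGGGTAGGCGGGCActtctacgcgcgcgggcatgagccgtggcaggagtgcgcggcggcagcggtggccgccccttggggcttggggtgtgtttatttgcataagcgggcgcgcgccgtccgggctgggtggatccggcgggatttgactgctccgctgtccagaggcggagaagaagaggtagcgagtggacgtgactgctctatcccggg
PMAIP1: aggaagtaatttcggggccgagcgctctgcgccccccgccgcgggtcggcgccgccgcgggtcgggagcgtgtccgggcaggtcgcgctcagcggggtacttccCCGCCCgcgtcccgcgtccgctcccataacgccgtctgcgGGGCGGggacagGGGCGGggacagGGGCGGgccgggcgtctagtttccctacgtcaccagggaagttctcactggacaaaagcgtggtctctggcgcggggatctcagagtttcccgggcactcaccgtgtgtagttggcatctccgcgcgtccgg
BCL2: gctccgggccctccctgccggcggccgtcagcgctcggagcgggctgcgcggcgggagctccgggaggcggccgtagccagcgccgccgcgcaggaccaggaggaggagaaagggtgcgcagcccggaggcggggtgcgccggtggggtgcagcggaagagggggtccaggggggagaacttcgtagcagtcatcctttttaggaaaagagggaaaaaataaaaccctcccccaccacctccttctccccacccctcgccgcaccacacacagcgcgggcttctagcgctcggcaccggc

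All 3 windows were rich in G and C, at 71.3% for APAF1, 71.3% for PMAIP1 and 70.7% for BCL2, against a median of 58.7% over 35116 RefSeq windows. APAF1 and PMAIP1 each held 42 CpG dinucleotides and BCL2 held 31, where the median window held 14. Windows of the other members ranged from 48.0% G and C for BBC3 to 76.0% for a CASP9 window, with BCL2L11 at 74.7%. Their CpG counts ranged from 5 for BBC3 to 39 for BCL2L11. Such richness was thus not particular to the members furthest from 0. GGGCGG was found once in the APAF1 window and 4 times in that of PMAIP1, and 45% of all windows held it at least once. These matches describe the letters only.

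Taken per transcript length, the survival genes among the members were dominated by MCL1 in both libraries. The order of the members hardly differed between the libraries. Levels are compared between genes in FPKM, which divides CPM by gene length in kilobases, as deposited. They spanned 61.3-fold in the overexpression library and 64.8-fold in the control library. MCL1, whose short-lived protein restrains BAK1 and BAX, was highest at 54.5 FPKM in the overexpression library and 55.6 FPKM in the control library. BAX and BAK1 came next, followed by PMAIP1. BBC3, which encodes the BH3-only protein PUMA, was lowest at 0.889 FPKM in the overexpression library and 0.858 FPKM in the control library. The only change of place was that of APAF1, which stood in place 5 in the overexpression library and place 6 in the control library, trading with BCL2L1. Their levels in the overexpression library were close, at 7.11 FPKM for APAF1 and 6.84 FPKM for BCL2L1.

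**Figure D1:**
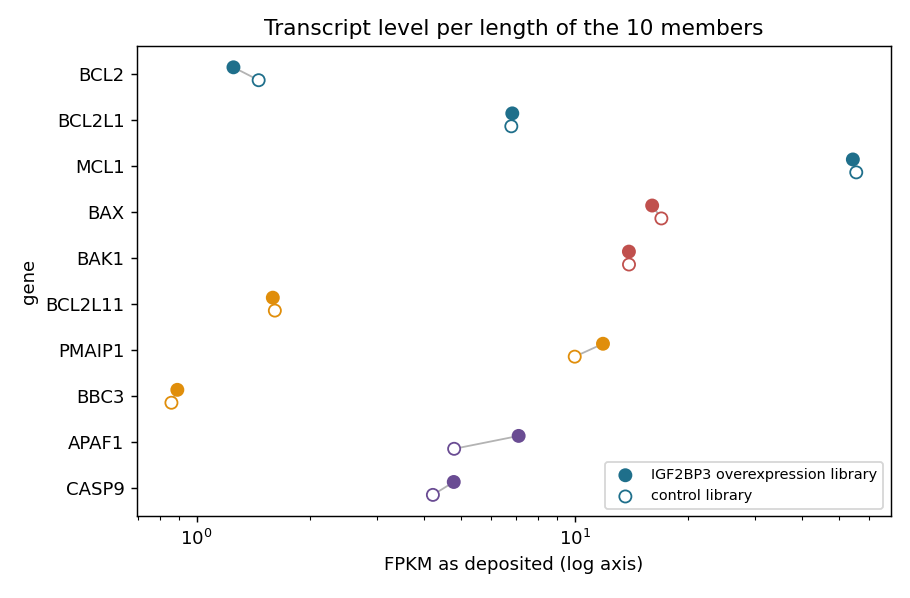
Level of each member in FPKM as deposited (log axis), with filled points for the overexpression library, open points for the control library and colours for the role of the gene; each point is 1 library. MCL1 lies above all other members, at 54.5 FPKM in the overexpression library and 55.6 FPKM in the control library, and the widest gap is that of APAF1, at 7.11 FPKM against 4.80 FPKM.

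The length behind an FPKM value changed this order in part. The lengths implied by the deposited values were 1.04 to 1.91 times that of the annotated transcript with the longest coding region. With CPM divided by the length of that transcript, MCL1, BAX, CASP9 and BBC3 kept their places in both libraries. BCL2 then stood above BCL2L11, at 2.123 against 2.116 CPM per kilobase in the overexpression library and 2.46 against 2.13 in the control library. PMAIP1 then stood above BAK1, at 20.7 against 14.5 CPM per kilobase in the overexpression library and 17.3 against 14.4 in the control library. APAF1 then stood below BCL2L1 in both libraries, so the exchange of places rests on the length used.

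The log2 ratio of a gene, overexpression over control, was taken on CPM plus 1 after TMM scaling. It was positive for 6 of the 10 members and negative for 4. In such bulk libraries a lower level in every cell and a lower share of cells that express a gene cannot be told apart. Their median was 0.01, with a lowest value of -0.20 and a highest of 0.56. A minimum of 50 counts, summed over the libraries, left 14157 measured genes, whose median was 0.00, and 51.1% of these genes were above 0. All 10 members passed that minimum. Only APAF1 was at least 1.2-fold different, in a background where 13.2% of measured genes were, 7.49% higher and 5.74% lower. No member was 1.5-fold different on this scale, where 1.66% of measured genes were.

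Counting error was set beside each ratio as a 95% exact interval from how the counts of a gene divided between the libraries. It covers counting error only. The interval excluded 1 for 4 members, above it for APAF1, PMAIP1 and CASP9 and below it for BCL2, and spanned it for the other 6. Over all measured genes, intervals excluded 1 in 41.4%, above it in 22.8% and below it in 18.6%. Low counts were mostly even numbers, 63.3% of those from 1 to 20 in the overexpression library and 64.1% in the control library. The cause of this excess of even counts was not tested. Intervals were also computed from halved counts, as if each read pair had been counted as 2. The same 4 members then excluded 1, with 26.8% of measured genes. The members' share was thus close to the background by the first count and rests on 4 genes by either.

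**Figure D2:**
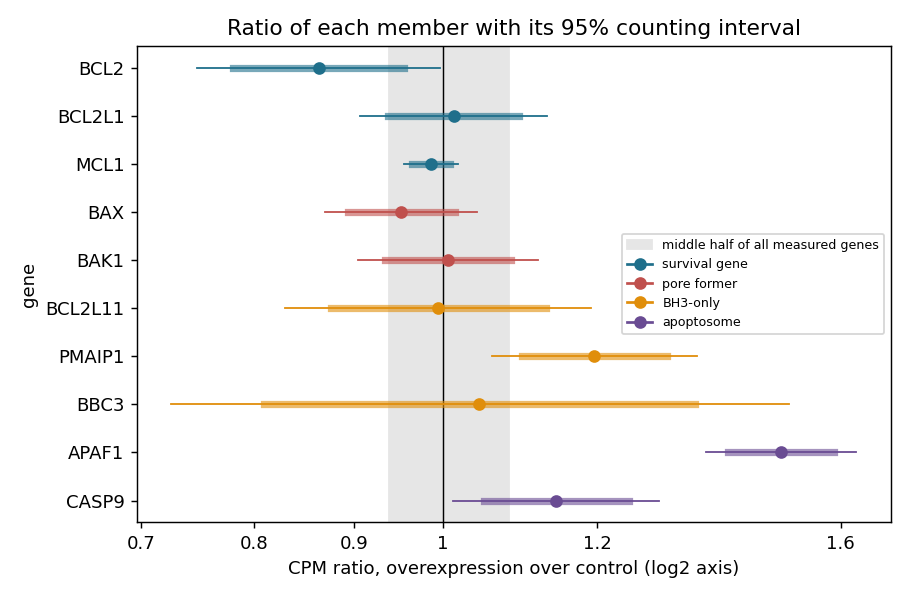
CPM ratio of each member, overexpression over control (log2 axis), as points coloured by role, with the 95% counting interval from the deposited counts as a thick bar and from halved counts as a thin line; the grey band holds the middle 50% of measured genes. APAF1 at 1.49, PMAIP1 at 1.196, CASP9 at 1.14 and BCL2 at 0.863 have both intervals on one side of 1.

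Among the survival genes, BCL2 was lower in the overexpression library by its counting interval, and MCL1 and BCL2L1 were nearly level. BCL2 (ENSG00000171791; GRCh38 chromosome 18, 63123346 to 63320128, minus strand) encodes the founding member of the family, which sits on the mitochondrial and endoplasmic reticulum membranes. It had 758 counts in the overexpression library, against 795 in the control library, or 15.8 CPM against 18.3 CPM. The ratio was 0.863, within 0.780 to 0.955 (0.748 to 0.996 with halved counts). Of all measured genes 22.3% lay at least as far from 0, so a difference of this size was common between these libraries. Transcripts of BCL2 have been reported elsewhere as bound by IGF2BP3. Binding was not measured here, and whether it bears on this difference was not tested.

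BCL2L1 (ENSG00000171552; chromosome 20, 31664452 to 31723989, minus strand) encodes BCL-XL and, by splicing, the death-promoting BCL-XS, which gene counts cannot tell apart. It had 1379 counts in the overexpression library and 1233 in the control library, 28.8 CPM against 28.5 CPM. The ratio of 1.01 had an interval of 0.937 to 1.09. Relative to BCL2L1, BCL2 was lower in the overexpression library by a factor of 0.853, with an exact conditional interval of 0.7503 to 0.969 that widened to 0.709 to 1.02 with halved counts.

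MCL1 (ENSG00000143384; chromosome 1, 150574551 to 150579738, minus strand) had 16278 counts in the overexpression library and 14948 in the control library, 340 CPM against 345 CPM. Its ratio of 0.986 had the narrowest interval of the members, 0.964 to 1.01. MCL1 made up 87.1% of the summed FPKM of the 3 survival genes in each library. BCL2L1 held 10.9% of that sum in the overexpression library and 10.6% in the control library, and BCL2 held 2.0% in the overexpression library and 2.28% in the control library. The survival gene BCL2L2, which is not a member, is outside that sum. It was at 11.8 FPKM in the overexpression library and 11.5 FPKM in the control library. MCL1 was at the 95.2nd percentile of measured genes in FPKM in both libraries, and BCL2 at the 27.0th percentile in the overexpression library and the 29.6th in the control library.

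The pore formers did not differ beyond counting error. BAX (ENSG00000087088; chromosome 19, 48954815 to 48961798, plus strand), which moves from the cytosol to mitochondria when activated, had 1993 counts in the overexpression library and 1896 in the control library. That was 16.0 FPKM against 17.0 FPKM, with a CPM ratio of 0.952 (0.893 to 1.01). BAK1 (ENSG00000030110; chromosome 6, 33572547 to 33580293, minus strand), which resides in the mitochondrial membrane, had 1479 counts in the overexpression library and 1331 in the control library. Both libraries stood at 13.9 FPKM, and the CPM ratio was 1.01 (0.933 to 1.08). The log2 ratio of BAK1 was 0.01 after TMM scaling and changed sign with library totals or FPKM values.

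BAX stood at 1.15 times BAK1 in FPKM in the overexpression library and 1.22 times in the control library. The ratio of those ratios was 0.946, with an interval of 0.857 to 1.04. BAK1 shares 16.6% of its 31-base words with the pseudogene BAK1P1, so reads could be split between them. BAK1P1 had 15 counts in the overexpression library and 12 in the control library. Summed FPKM of the 3 survival genes was 2.09 times that of both pore formers in the overexpression library and 2.07 times in the control library.

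Of the BH3-only genes, PMAIP1 was higher in the overexpression library by its counting interval, and BCL2L11 and BBC3 were not. PMAIP1 (ENSG00000141682; chromosome 18, 59899948 to 59904306, plus strand) encodes NOXA, a small protein that binds MCL1 and promotes its destruction. It had 1248 counts in the overexpression library and 945 in the control library, 11.9 FPKM against 10.01 FPKM. Its CPM ratio was 1.196 (1.098 to 1.302; 1.06 to 1.35 from halved counts), and 15.1% of measured genes lay at least as far from 0. PMAIP1 rests just under the 1.2-fold rule, at a log2 ratio of 0.25.

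BCL2L11 (ENSG00000153094; chromosome 2, 111119378 to 111168447, plus strand) encodes BIM, which binds all survival proteins and can activate BAX directly. It had 515 counts in the overexpression library and 469 in the control library, and its ratio was 0.994 (0.875 to 1.13). The whole gene lies inside MIR4435-2HG, a long noncoding RNA gene on the opposite strand with 2745 counts in the overexpression library and 2486 in the control library. No source used here gives the strand setting of the counting, so the reads of BCL2L11 are uncertain by that overlap.

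BBC3 (ENSG00000105327; chromosome 19, 47220822 to 47232766, minus strand) is a p53 target, as PMAIP1 is, and its protein PUMA also binds all survival proteins. It had 136 counts in the overexpression library and 118 in the control library. Its ratio of 1.04 had an interval of 0.809 to 1.35 (0.725 to 1.505 with halved counts), the widest of the members. A difference of the size seen for PMAIP1 was thus not detectable for BBC3 at this depth.

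PMAIP1 held 82.7% of the summed FPKM of the 3 BH3-only genes in the overexpression library and 80.2% in the control library. It was 7.47 times BCL2L11 in FPKM in the overexpression library and 6.21 times in the control library. MCL1 transcripts stood at 4.58 times those of PMAIP1, which encodes its binding partner, in the overexpression library and at 5.56 times in the control library. PMAIP1 relative to MCL1 was 1.21-fold higher in the overexpression library, within 1.11 to 1.32 (1.07 to 1.38 with halved counts). Summed FPKM of the survival genes among the members was 4.35 times that of these 3 BH3-only genes in the overexpression library and 5.12 times in the control library. These sums leave out other genes of both kinds. BCL2L2 was at 11.8 FPKM in the overexpression library and 11.5 FPKM in the control library. BID was at 8.40 against 9.11 FPKM and BAD at 5.30 against 4.66 FPKM, so the values hold for the members only.

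The apoptosome genes were both higher in the overexpression library, and APAF1 was the member furthest from 0. APAF1 (ENSG00000120868; chromosome 12, 98645141 to 98735433, plus strand) encodes the scaffold that cytochrome c assembles into a wheel-shaped complex. It had 2650 counts in the overexpression library, against 1609 in the control library, or 55.4 CPM against 37.1 CPM and 7.11 FPKM against 4.80 FPKM. The ratio was 1.49, within 1.401 to 1.59 (1.36 to 1.63 with halved counts). Its log2 ratio of 0.56 ranked in place 156 of the 14157 measured genes from the highest, and 1.82% of them lay at least as far from 0 in either direction. In the authors' deposited table the log2 fold change of APAF1 is 0.57.

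CASP9 (ENSG00000132906; chromosome 1, 15490832 to 15526534, minus strand) encodes the initiator caspase that the apoptosome activates. It had 1212 counts in the overexpression library and 960 in the control library, 4.79 FPKM against 4.22 FPKM. The ratio was 1.14 (1.049 to 1.245; 1.01 to 1.29 from halved counts), and 25.2% of measured genes lay at least as far from 0. APAF1 was 1.48 times CASP9 in FPKM in the overexpression library and 1.14 times in the control library. The ratio of those ratios was 1.30, with an interval of 1.17 to 1.45, so APAF1 differed between the libraries by more than CASP9 beyond counting error. Against BCL2, the corresponding value for APAF1 was 1.73 (1.53 to 1.95). That pair sets the highest member against the lowest in these same libraries, and the interval makes no allowance for that.

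**Figure D3:**
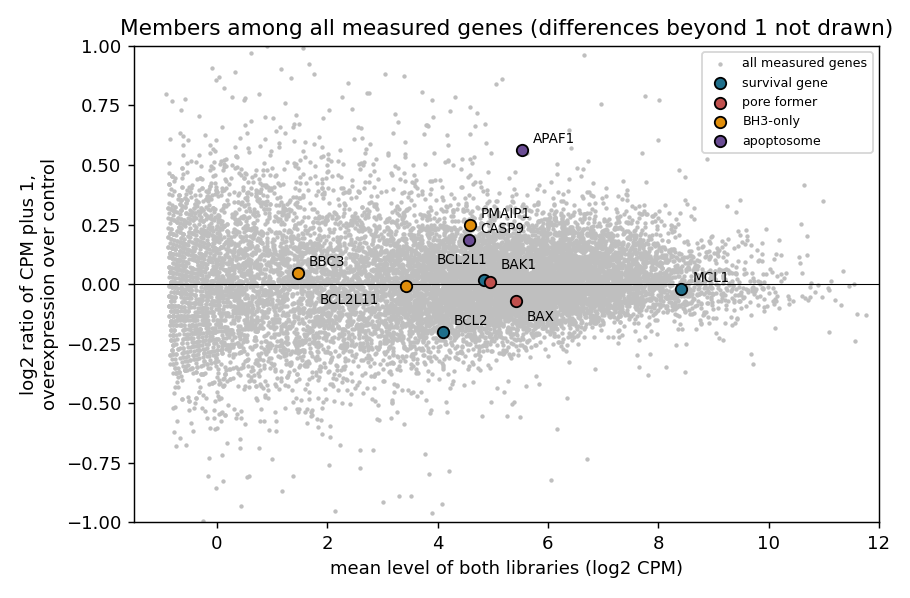
Log2 ratio between the libraries (overexpression over control, on CPM plus 1) against the mean level of both libraries (log2 CPM), with grey points for all measured genes within the axis and coloured points for the members by role. APAF1, at a log2 ratio of 0.56, is the highest member, and 1.82% of measured genes lie at least as far from 0; PMAIP1 at 0.25, CASP9 at 0.18, BCL2 at -0.20 and the other members lie within the grey cloud.

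Measured genes around the members were also examined. Near APAF1, 4 genes passed the count minimum with a start within 1 Mb. The closest was IKBIP, whose start in the capitals of the APAF1 window above lies 28 bases away on the opposite strand, and which was singled out after its values were seen. IKBIP had 4305 counts in the overexpression library and 3073 in the control library, 89.9 CPM against 70.9 CPM, a ratio of 1.27 (1.21 to 1.33). TMPO, a nuclear envelope gene, stood at 1.15 (1.13 to 1.17), TMPO-AS1 at 1.11 (1.00 to 1.24) and the phosphate carrier SLC25A3 at 1.01 (0.992 to 1.02). The 3' end of APAF1 overlaps ANKS1B on the opposite strand by 8977 bases, and ANKS1B had 161 counts in the overexpression library and 149 in the control library. The part of this overlap in the APAF1 counts was not tested.

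Of the other members, BAK1, CASP9 and BCL2L11 had a gene at least 2-fold different with a start within 1 Mb, in a background where 0.678% of measured genes were. Near BAK1 these included CUTA at a log2 ratio of 3.18 and the bromodomain gene BRD2 at 3.39. Near CASP9 it was NECAP2 at 2.72, and near BCL2L11 it was RGPD6 at -1.45. BAK1, CASP9 and BCL2L11 themselves stood at 0.01, 0.18 and -0.01.

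IGF2BP proteins bind transcripts around m6A in a UGGAC context, so the members' annotated transcripts were searched for TGGAC as written in DNA letters. The transcripts used were those with the longest coding region in GENCODE release 29. APAF1, the highest member, held 6 matches in 5444 bases, 4 of them in its 3744 coding bases. BCL2, the lowest, held 6 in 7461 bases, 1 of them in its 717 coding bases. Of the other members, CASP9 held 11 matches and BAX 7, with 6 coding in each, and PMAIP1 held 0 in 1262 bases. Whether the number of matches bears on the ratios was not tested. The coding matches of APAF1 and BCL2 are shown with 10 bases on either side, TGGAC in capitals. They are named by the first coding base shown, counted from 1 at the start codon. A match is not evidence of methylation or binding.
APAF1 at coding base 1643: tatctttaaaTGGACaccttcttgg
APAF1 at coding base 1655: gacaccttctTGGACgacagccatt
APAF1 at coding base 3091: aattggcaatTGGACaaatgtatct
APAF1 at coding base 3400: gccttctctgTGGACagtaccctgc
BCL2 at coding base 499: tcgcccctggTGGACaacatcgccc

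The core GGAC occurred 3.12 times per kilobase in the APAF1 transcript and 2.81 times in that of BCL2, both between the quartiles of 2.54 and 5.43 over 11607 measured coding genes. BAX held the most among the members, at 9.57 per kilobase, and BCL2L11 the fewest, at 2.75. The median of the members was 4.27 and that of the measured coding genes 3.75.

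Beyond the members, 83 further genes of the pathway in 8 lists were examined, of which 79 were listed and 72 passed the count minimum. Of the 72, 42 were above 0 and 30 below, with a median of 0.03, close to that of all measured genes. Past 1.2-fold on the higher side were 4, MTCH2, CASP10, XAF1 and ROCK1, and none was 1.2-fold lower. This share was below that of all measured genes.

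The other multidomain BCL2 relatives had a median of 0.03 over 4 measured genes, with none 1.2-fold different. BCL2L13, a mitophagy receptor, stood at 0.14, the pore former BOK at -0.10 and the survival gene BCL2L2 at 0.04. BCL2L2 reached 11.8 FPKM in the overexpression library and 11.5 FPKM in the control library, above BCL2L1 and BCL2 in both. The other BH3-only and BNIP genes had a median of 0.05 over 7 genes, with none 1.2-fold different. BAD, which growth factor signalling holds inactive, stood at 0.17, HRK at -0.17 and BID, the link from death receptors to mitochondria, at -0.11. Of these, the interval of BID alone excluded 1 and spanned it with halved counts.

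Among 12 membrane partners of the family, MTCH2, a mitochondrial outer membrane protein that recruits BID, had 2658 counts in the overexpression library and 206 in the control library, a ratio of 11.7 (10.1 to 13.5). The log2 ratio of 3.30 was far outside the range of the other 11, and NUP160, at 2.48, and FNBP4, at 1.41, both with starts within 1 Mb of it, also stood past 2-fold. OPA1, which shapes the inner membrane folds that hold cytochrome c, stood at 0.19 and the BAX inhibitor TMBIM6 at 0.13. The median of this list was 0.02.

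Released mitochondrial proteins and apoptosome modulators had a median of -0.02 over 10 genes, 7 of them below 0, with none 1.2-fold different. The protease HTRA2 stood at -0.21, with 755 counts in the overexpression library and 800 in the control library, and DIABLO, which frees caspases from their inhibitors, at 0.15 from few counts. CYCS, which encodes cytochrome c, was at 125 FPKM in the overexpression library and 131 FPKM in the control library, many times the level of APAF1. Its ratio was 0.959 (0.945 to 0.974), on the other side of 1 from APAF1 and CASP9.

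Executioner caspases and their targets had a median of 0.05 over 9 genes. ROCK1, a kinase that caspase-3 cleaves, was 1.23-fold higher (1.19 to 1.27 with halved counts) and PAK2 stood at 0.18. Inhibitor of apoptosis genes had a median of 0.13 over 6 genes. XAF1, an antagonist of XIAP, stood at 0.30 from 56 counts in the overexpression library and 33 in the control library, and its interval of 0.982 to 2.44 spanned 1. BIRC6 stood at 0.22 and XIAP, the inhibitor of caspase-9 and the executioners, at 0.16.

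In the death receptor arm, CASP10 was the only gene of 11 at least 1.2-fold different. It had 334 counts in the overexpression library and 183 in the control library, a ratio of 1.65 (1.38 to 1.99). The receptor FAS stood at 0.19 and the ligand TNFSF10 at -0.19, and the median was 0.02. Regulators of the members had a median of 0.05 over 13 genes, none 1.2-fold different. USP9X, which removes ubiquitin from MCL1, stood at 0.18, MDM2, the ubiquitin ligase of p53, at 0.15 and MARCHF5, a mitochondrial ubiquitin ligase, at -0.11.

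**Figure D4:**
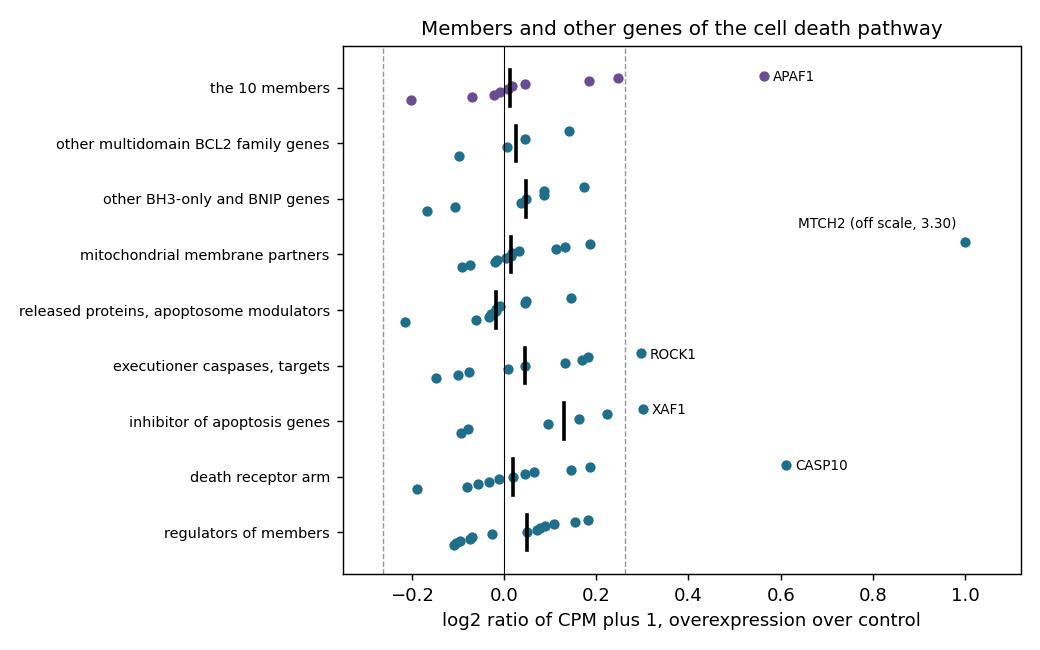
Log2 ratio between the libraries (overexpression over control, on CPM plus 1) of the members (top) and of 8 lists of other pathway genes, with 1 point per measured gene, a black bar at each median and dashed lines at 1.2-fold. Medians lie between -0.02 and 0.13, and APAF1, MTCH2 (drawn at 1, with its value of 3.30 off the scale), ROCK1, XAF1 and CASP10 are the genes past a dashed line.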

How the data were processed

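The authors deposited whole-number counts and FPKM per gene of 1 overexpression and 1 control library, per the file headers. Libraries were made from oligo(dT)-captured RNA with dUTP strand marking and PCR, per the labels' protocols. A log2 fold change by the authors is in the second deposited table, per the file headers; FPKM values were the same in both deposited tables for all 28038 genes. Per the submitters' processing notes reads were placed on GRCh38; for the aligner, counter, strand setting and annotation the entry is: not given in the sources used here.

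Counts were scaled by TMM (edgeR 4.0.16, R 4.3.3). Ratios are of CPM with exact 95% Clopper-Pearson intervals, and log2 ratios of CPM plus 1, which understates differences of low genes. Ratios of 2 members carry the exact conditional interval of the odds ratio (scipy 1.17.1). Reads without molecular identifiers are not independent molecules, so intervals cover counting error only. The floor of 3 counts equals 0.0627 CPM in the overexpression library and 0.0692 CPM in the control library. A fold stood in for a call, since no p-value can be had. Ratios and intervals were tested on simulated counts of independent reads. That check does not cover dependence between reads or the even low counts seen here.

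Of the gene IDs 94.2% were in GENCODE release 29 (GRCh38), the source of positions and transcripts, and 9 of the 10 members had promoter windows in RefSeq on GRCh38.p14. Members, lists and the 1.2-fold rule were chosen with earlier results of these data known. Named genes were all members, IGF2BP3, the 3 genes of each list furthest from 0 with all at least 1.5-fold different, and genes at least 2-fold different within 1 Mb of a member. IKBIP, the other neighbours of APAF1, BCL2L2 in FPKM and the marker genes fall partly outside that rule, and some genes that it names are not reported here. Alternatives were scaling by totals or DESeq2 1.42.0 size factors, pseudocounts, FPKM values, count minimums, folds, and cubic trends in length and GC content removed. Python 3.11.15, numpy 2.4.6, pandas 2.3.3 and matplotlib 3.10.9 were used.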

Additional observations from a re-analysis of the deposited data

How the results depend on the processing

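Only APAF1 among the members was at least 1.2-fold different under each scaling, pseudocount, count minimum, FPKM setting and with length and GC trends removed; at 1.5-fold and at 2-fold the count was 0. APAF1 ranged from 0.48 with FPKM plus 1 to 0.57 with a pseudocount of 0.1 CPM, BCL2 from -0.25 to -0.13, PMAIP1 from 0.21 to 0.26 and CASP9 from 0.15 to 0.21 on the log2 scale. BAK1 alone changed sign, to just below 0, with library totals, FPKM plus 1 and FPKM plus 0.1, the last chosen after seeing the data. The members' median of 0.01 ranged up to 0.07, with trends removed. Of 4 other pathway genes, 2 remained past 1.2-fold with trends removed (ROCK1 at 0.21 and XAF1 at 0.26 did not), 2 at 1.5-fold and 1 at 2-fold. The 1873 measured genes past 1.2-fold became 2836 with a pseudocount of 0.1 CPM, 597 with 5 CPM and 884 with FPKM plus 1. They became 1128 with a count minimum of 200, which left 11474 genes, 235 at 1.5-fold and 96 at 2-fold. A larger pseudocount, a higher count minimum or a higher fold can only lower this count. The cause of the change with FPKM plus 1 was not tested. No paired analysis was possible because each group has 1 sample. No library could be left out for the same reason, and depth limits BBC3 most.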

Other observations

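Promoter windows of the members differed in their letters. The BAX window held 4 matches to CACGTG, the E-box core, which 7.26% of all RefSeq windows hold, and BBC3 held 1. The 2 CASP9 windows held 8 and 9 matches to GGGCGG. The windows of BBC3 and BAK1 were the poorest in CpG, with 5 and 7. TATAAA was found only in 1 of the 2 BCL2L1 windows, with 2 matches, and 11.5% of all windows hold it. These matches were counted on both strands and say nothing of factors bound.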
